A study of Mus musculus with 8 samples.

Results

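The 10 genes described here are 3 genes of secreted factors, a glucose transporter gene, 5 genes of glycolytic enzymes and the gene of a hypoxia transcription factor, out of 32249 genes listed in the tables. They are Vegfa, Thbs1 and Gdf15, then Slc2a1, Hk2, Ldha, Pgk1, Aldoa and Eno1, and last Hif1a. They were chosen by name, with their CPM (a gene's UMI count per 1000000 counted in the library) in control and CYR61 libraries already known. That contrast is therefore given below as a description of the members and carries no test of them. Cells were grown from bone marrow of the hind limbs for 3 days with M-CSF, the growth factor that drives macrophage differentiation. The mice were C57Bl/6J, given as male, at an age of 10 weeks. CYR61, the product of Ccn1, is a matrix-associated protein and a ligand of integrins. The 4 control libraries received no CYR61, and the 4 CYR61 libraries received 4 µg/mL for the last 24 h. Every library was made with HIVE, a microwell platform that captures single cells and tags each molecule with a unique molecular identifier (UMI). The labels do not state whether replicates were separate animals or cultures, so the spread between libraries behind the p-values below may be technical. Where cells of the same library are compared, the library is a block. Those p-values rest on how the difference within a library varies between libraries.

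Each library listed 5000 barcodes, and total UMIs ran from 1379637 to 16318946. Of 40000 barcodes, 12848 held at least 300 genes and at most 20% mitochondrial UMIs. Many barcodes recurred in tables of the same date, so each was kept only in the library of that date where it had most UMIs. This left 9196 cells, with 294 to 3604 per library and 842528 to 13933610 UMIs. Another library of the date also listed 2791 of those barcodes, and 13 occurred on both dates. Replicates 1 and 2 of each group carry the earlier date stamp and replicates 3 and 4 the later one. The libraries also fell into 2 sets against the male label. Control 2, control 3, CYR61 1 and CYR61 2 held Xist RNA, the transcript of the inactive X chromosome, at 1152 to 1249 CPM. Control 1, control 4, CYR61 3 and CYR61 4 held Xist at 1.16 CPM or less and a sum of 323 to 399 CPM of Y-linked genes. They are called Xist libraries and Y libraries below, and each set holds 2 control and 2 CYR61 libraries. Macrophage markers summed to 2196 to 3627 CPM in every library, while erythroid markers reached at most 0.291 CPM.

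Hypoxia-inducible factor, of which HIF-1α is the oxygen-regulated subunit, binds a short core motif and raises transcription of glucose transporters, glycolytic enzymes and VEGF-A. Oxygen controls HIF-1α mostly through protein stability, so the level of Hif1a RNA is not a measure of its activity. Macrophages depend strongly on glycolysis when activated, and VEGF-A, thrombospondin-1 and GDF15 are secreted proteins that they can make under stress or during repair.

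The promoter windows are shown first because a shared core motif is the textbook link between the secreted factors and the enzymes. Of the 10 members, 9 matched RefSeq's windows on GRCm38.p6, each from 250 bases before to 50 bases after an annotated start. Thbs1 was the other one. The motif searched was ACGTG or GCGTG on either strand, which reads CACGT or CACGC on the other strand, and the palindrome CACGTG was counted on each strand. At least 1 match was present in 14380 of all 32851 windows, or 43.8%, and in 46.7% of 27025 genes. The windows below set the upstream starts of Vegfa and Gdf15 beside those of Slc2a1 and Ldha, with matches in capitals. They are chr17:46032328-46032627 on the minus strand, chr8:70632407-70632706 on the minus strand, chr4:119108495-119108794 on the plus strand and chr7:46845554-46845853 on the plus strand.
Vegfa: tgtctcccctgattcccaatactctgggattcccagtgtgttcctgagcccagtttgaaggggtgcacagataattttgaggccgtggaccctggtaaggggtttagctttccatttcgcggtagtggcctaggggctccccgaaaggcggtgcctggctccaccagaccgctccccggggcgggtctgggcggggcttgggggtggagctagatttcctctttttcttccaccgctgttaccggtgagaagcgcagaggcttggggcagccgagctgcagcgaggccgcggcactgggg
Gdf15: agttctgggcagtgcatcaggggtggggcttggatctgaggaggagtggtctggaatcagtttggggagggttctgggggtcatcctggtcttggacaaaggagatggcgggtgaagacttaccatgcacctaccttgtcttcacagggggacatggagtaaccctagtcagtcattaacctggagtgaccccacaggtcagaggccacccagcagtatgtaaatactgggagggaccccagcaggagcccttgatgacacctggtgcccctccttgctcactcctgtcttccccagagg
Slc2a1: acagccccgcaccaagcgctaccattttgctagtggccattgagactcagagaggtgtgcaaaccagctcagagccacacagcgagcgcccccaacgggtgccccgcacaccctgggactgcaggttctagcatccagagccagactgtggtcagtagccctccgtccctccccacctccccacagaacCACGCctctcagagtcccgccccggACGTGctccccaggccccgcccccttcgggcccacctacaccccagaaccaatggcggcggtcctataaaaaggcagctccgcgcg
Ldha: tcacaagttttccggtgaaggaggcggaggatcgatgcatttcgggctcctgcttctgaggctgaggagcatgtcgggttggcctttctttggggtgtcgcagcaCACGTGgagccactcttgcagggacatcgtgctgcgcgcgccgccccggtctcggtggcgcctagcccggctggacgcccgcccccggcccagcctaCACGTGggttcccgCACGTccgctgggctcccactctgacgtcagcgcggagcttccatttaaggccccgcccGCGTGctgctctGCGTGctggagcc
The upstream windows of Vegfa and Gdf15 held 0 matches, while Slc2a1 held 2 and Ldha held 7. The downstream start of Vegfa held 2 matches, and that of Gdf15 held 2 from a single palindrome. The other enzymes and Hif1a held between 0 and 3 matches per window, with Aldoa at 0 in 1 of its 3 windows. Each of the 9 members with an entry thus held a match in at least 1 window. For Vegfa and Gdf15 that was only the downstream window, which lies inside the gene (chr17:46025114-46025413 for Vegfa). At the most upstream start, Aldoa also held 0, while Slc2a1, Hk2, Pgk1 and Eno1 held 2, Hif1a held 3 and Ldha held 7. The count per gene pools such windows, so it is not used to compare secreted factors with enzymes. These are matches of letters in short windows. The hypoxia response element known for Vegfa lies farther upstream and is outside the window shown.

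**Figure D1:**
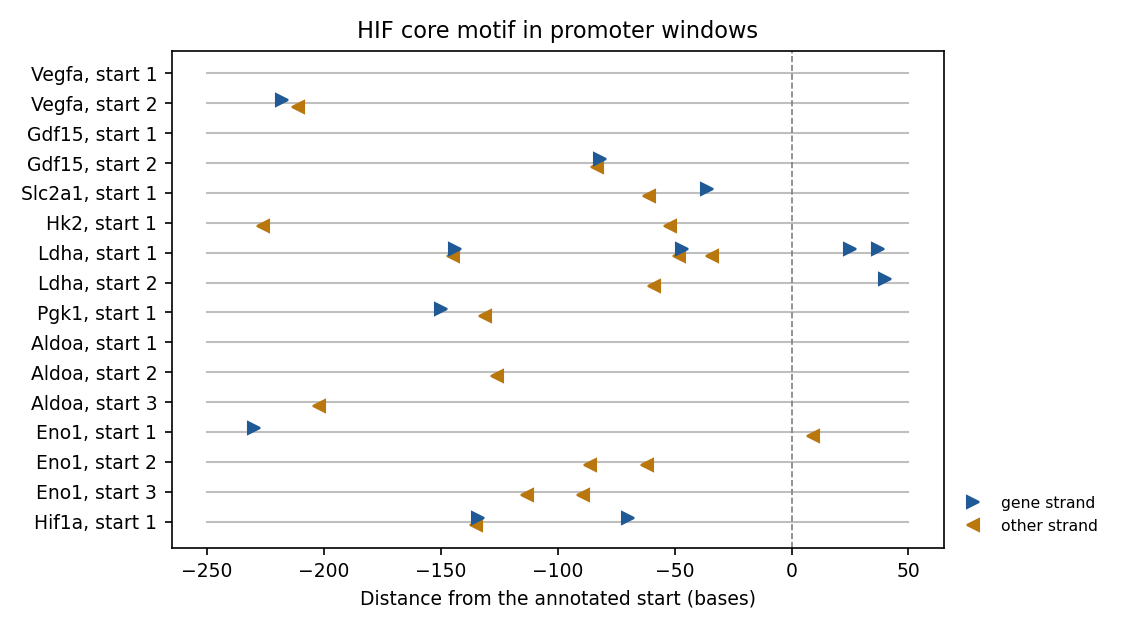
Matches to the HIF core motif (ACGTG or GCGTG, either strand) in the RefSeq promoter windows of the 9 members with an entry, plotted by distance in bases from each annotated start. The upstream starts of Vegfa and Gdf15 have 0 matches, their downstream starts have 2 each, and the upstream start of Ldha has 7.

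The secreted factors varied widely between libraries, and their levels were highest in the Y libraries of both treatment groups. Vegfa encodes VEGF-A, the main growth factor for endothelial cells, and lies on chr17:46016993-46032369 (mm10, GENCODE annotation). Its level was 214, 59.4, 72.4 and 177 CPM in control libraries 1 to 4, and 26.2, 17.2, 123 and 176 CPM in CYR61 libraries 1 to 4. The treated and untreated groups overlapped, and the lowest values of each were in its Xist libraries. Thbs1 encodes thrombospondin-1, a matrix glycoprotein that inhibits angiogenesis, and lies on chr2:118111876-118127133. Thbs1 stood at 327, 92.6, 16.6 and 192 CPM in control libraries and at 81.8, 70.6, 346 and 634 CPM in CYR61 libraries. The groups overlapped again, with the highest value in a CYR61 Y library and the lowest in a control Xist library. Gdf15 encodes a stress-induced cytokine of the TGF-β superfamily and lies on chr8:70629393-70632456. Gdf15 stood at 220, 113, 45.1 and 256 CPM in control libraries and at 37.5, 28.5, 190 and 238 CPM in CYR61 libraries. The ranges of the groups overlapped here as well.

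The transporter and the enzymes had narrower ranges than the secreted factors, apart from Pgk1. Slc2a1 encodes GLUT1, the basal glucose transporter, and measured 30.6, 35.7, 21.4 and 25.9 CPM in controls against 17.1, 14.4, 20.02 and 20.05 CPM with CYR61. Ldha encodes the lactate dehydrogenase subunit that favours lactate formation, and measured 353, 327, 379 and 310 CPM in controls against 252, 266, 306 and 276 CPM with CYR61. For both genes each CYR61 library lay below each control library. Aldoa encodes aldolase A, which splits fructose-1,6-bisphosphate, and measured 581, 308, 330 and 622 CPM in controls against 321, 323, 544 and 495 CPM with CYR61. Its groups overlapped, and the 4 Y libraries stood above the 4 Xist libraries. Hk2, the gene of hexokinase 2, which phosphorylates glucose on entry, ranged from 10.7 to 43.9 CPM over all libraries. Eno1, the gene of enolase 1, which forms phosphoenolpyruvate, ranged from 23.5 to 45.9 CPM. Hif1a ranged from 70.8 to 121 CPM, and its control and CYR61 ranges overlapped. Pgk1, the gene of phosphoglycerate kinase 1, was listed at 0 in control 3 and control 4 and at no more than 6.79 CPM elsewhere.

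**Figure D2:**
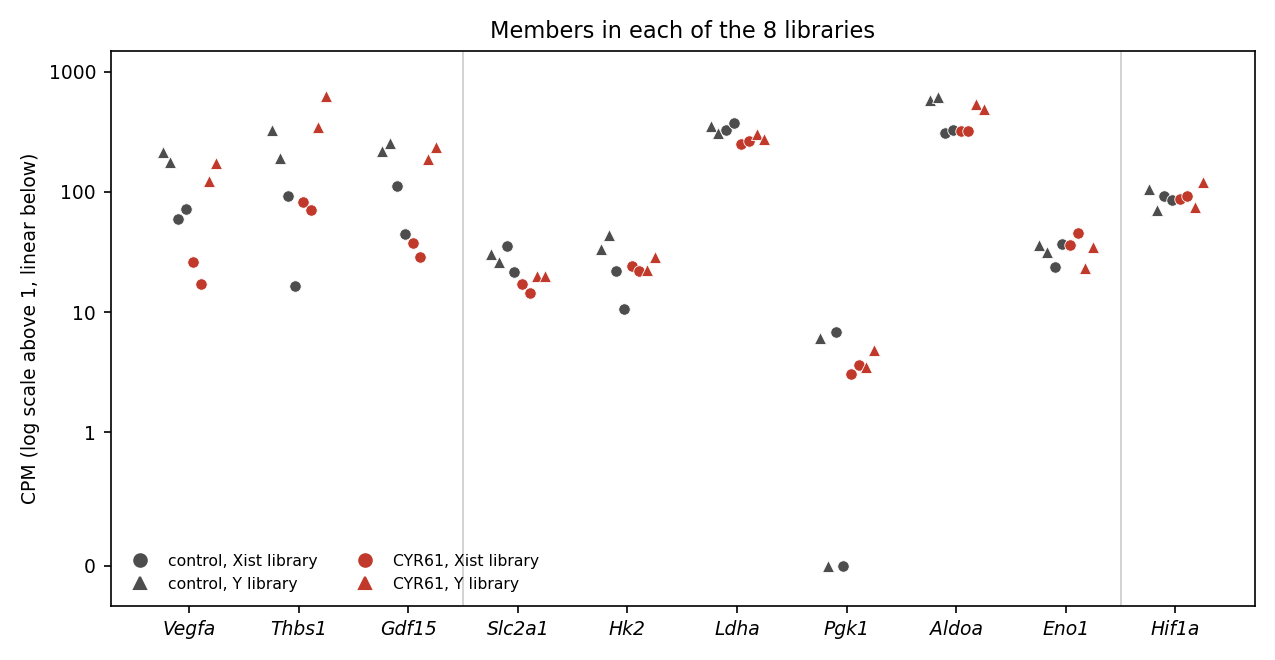
CPM of each member in each of the 8 libraries, on a log axis above 1 CPM and a linear one below, with circles for Xist libraries, triangles for Y libraries, grey for control and red for CYR61. Triangles lie above circles for Vegfa, Thbs1, Gdf15 and Aldoa, and red symbols lie below grey ones for Slc2a1 and Ldha.

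Several enzyme genes have near-identical processed copies, and how shared reads were treated is not given in the sources used here. Gapdh, the next enzyme of the pathway and usually among the most abundant transcripts of a cell, measured 4.35 to 23.9 CPM. The levels of Pgk1 and Eno1 are therefore uncertain, as reads shared with copies may have been left out. Eno1b was at most 5.98 CPM and Pgk1-ps1 at most 4.35 CPM. The annotation also holds a separate Aldoa gene model upstream of the main one, and both overlap Fam57b, a protein-coding gene on the other strand. Thbs1, Slc2a1, Hk2 and Hif1a also overlap antisense or other gene models. Where the counting did not use strand, reads of such partners cannot be told apart.

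The first comparison asks how macrophages given CYR61 differ from untreated ones. In edgeR fits of the summed counts, the CYR61 minus control log2 fold change was -0.64 (SE 0.65) for Vegfa, 0.84 (SE 0.75) for Thbs1 and -0.37 (SE 0.65) for Gdf15, with n = 4 libraries per group. The standard errors of Vegfa and Gdf15 were as large as the differences or larger. Slc2a1 changed by -0.65 (SE 0.28) and Ldha by -0.29 (SE 0.16) on the same log2 scale, the transporter from 28.4 ± 6.14 to 17.9 ± 2.70 CPM and Ldha from 342 ± 30.1 to 275 ± 23.0 CPM (mean ± SD, n = 4). Hk2 stood at -0.16 (SE 0.36), Aldoa at -0.11 (SE 0.27), Eno1 at 0.18 (SE 0.27) and Hif1a at 0.11 (SE 0.20). Of the 9 members that passed the filter on low counts, 0 had an adjusted p under 0.05 with edgeR, 0 with DESeq2, and 1, Slc2a1, an unadjusted edgeR p under 0.05. Over all 10422 genes tested, 1.16% were called, 1.12% higher and 0.0384% lower, and 6.2% had an unadjusted p under 0.05. Groups did not overlap for 2 of 10 members, Slc2a1 and Ldha, both lower with CYR61. Over all genes tested 5.12% did not overlap, 2.87% being higher and 2.25% lower with CYR61. Since the members were chosen on this contrast, nothing is read from these counts.

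Because each set of libraries holds both treatments, the contrast was also laid out within each. In the Y libraries, whose transcripts match the male label, Vegfa was 214 and 177 CPM in controls against 123 and 176 CPM with CYR61, and Thbs1 was 327 and 192 CPM against 346 and 634 CPM. Gdf15 overlapped there, at 220 and 256 CPM against 190 and 238 CPM. In the Xist libraries, Vegfa was 59.4 and 72.4 CPM in controls against 26.2 and 17.2 CPM with CYR61. In the Xist libraries 4 of 10 members did not overlap, with Vegfa, Gdf15, Slc2a1 and Ldha lower with CYR61. In the Y libraries 6 of 10 did not overlap, with Vegfa, Slc2a1, Hk2, Ldha and Aldoa lower and Thbs1 higher. With 2 libraries against 2, 50% of all 10422 genes did not overlap in the Xist libraries and 37% in the Y libraries. The members were chosen on this contrast, and nothing is read from these counts. With the set as a block, the log2 fold change was -0.89 (SE 0.24) for Vegfa, 0.75 (SE 0.30) for Thbs1 and -0.62 (SE 0.25) for Gdf15. The standard error of each was smaller than without the block. The set was taken up after the members' values were seen to follow it, so smaller standard errors follow from that choice. Nothing is read from them.

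The second comparison sets the Y libraries against the Xist libraries. Vegfa, Thbs1, Gdf15 and Aldoa were higher in each Y library than in each Xist library. This comparison was chosen after the members' values were seen to follow the split, on the same CPM, so for the members it is a description and no p-value is given for them. The split itself was taken from Xist and Y-linked counts alone, and the edgeR model held treatment and set as terms. Vegfa averaged 172 ± 37.4 CPM in Y libraries and 43.8 ± 26.4 CPM in Xist libraries (SD, n = 4), a log2 fold change of 2.25 (SE 0.25). Thbs1 averaged 375 ± 186 against 65.4 ± 33.7 CPM, a log2 fold change of 2.50 (SE 0.30). Gdf15 averaged 226 ± 28.4 against 56.0 ± 38.5 CPM, a log2 fold change of 2.20 (SE 0.25). These are differences of 4.77-fold, 5.65-fold and 4.58-fold. Aldoa averaged 560 ± 54.2 against 321 ± 9.04 CPM, a smaller difference of 1.75-fold (0.81 on the log2 scale, SE 0.12).

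The other enzymes, the transporter and Hif1a overlapped between the sets. Ldha differed by 0.05 (SE 0.13) on the log2 scale, Slc2a1 by 0.19 (SE 0.27), Eno1 by -0.17 (SE 0.26), Hk2 by 0.63 (SE 0.30), Pgk1 by 0.21 (SE 0.79) and Hif1a by 0.10 (SE 0.18). In this fit 4 of 10 members were called higher and 0 lower. Over all 10910 genes, 7.23% were called higher and 7.51% lower (14.7% in all), and 29.3% had an unadjusted p under 0.05, so the sets differ widely outside the members too. Since the members' own values prompted the comparison, nothing is read from their count. Groups did not overlap for 4 of 10 members, against 19.2% of all genes in either direction, 8.88% higher and 10.3% lower in Y libraries. Over the 18 alternatives run, the lowest and highest log2 fold changes were 1.72 and 2.46 for Vegfa, 2.07 and 3.07 for Thbs1, 1.995 and 2.57 for Gdf15, and 0.71 and 0.97 for Aldoa.

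**Figure D3:**
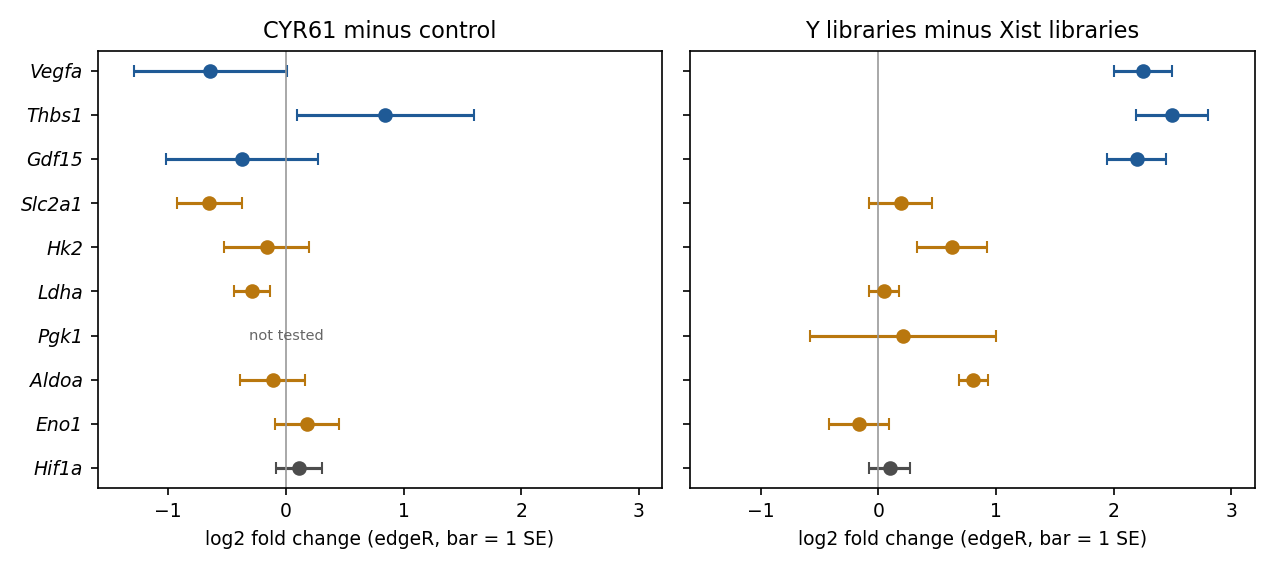
edgeR log2 fold change of each member for CYR61 minus control (left) and for Y minus Xist libraries (right), with bars of 1 SE and colours for secreted factors, transporter with enzymes, and Hif1a. On the right Vegfa, Thbs1 and Gdf15 lie between 2.20 and 2.50 and Ldha lies at 0.05, and on the left no bar lies beyond 2.

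Other measures moved with the sets. The median mitochondrial share per cell was 11.9% to 14.3% in Xist libraries and 4.55% to 11.7% in Y libraries. The 10 neutrophil markers summed to 286 to 1286 CPM in Xist libraries and 980 to 2777 CPM in Y libraries, ranges that overlap. Of 6 tested, edgeR called 5 neutrophil markers, all higher in Y libraries, and DESeq2 called 3. Camp rose by 4.17, Ngp by 2.34, Ltf by 2.32 and S100a8 by 1.32 on the log2 scale. The first 3 of these passed in every alternative and S100a8 in 9 of 18. The 8 platelet markers summed to 375 to 718 and 765 to 1372 CPM. Of 3 tested, edgeR called 1, Pf4, higher in Y libraries. The 7 monocyte markers overlapped, at 87.8 to 173 and 95.5 to 132 CPM. Of 6 tested, edgeR called 2 monocyte markers, both lower in Y libraries. Ccr2, the chemokine receptor of inflammatory monocytes, fell from 48.5 ± 37.2 to 12.5 ± 11.7 CPM and passed in 9 of 18 alternatives. Cx3cr1, the fractalkine receptor, averaged 3.82 CPM in Xist and 0.0727 CPM in Y libraries and passed in 8 of 11. DESeq2 called Cx3cr1 and Fn1, a further marker of the list, but not Ccr2. The 6 had a median log2 fold change of 0.59, against 0.01 over all genes, so the list as a whole did not fall. Fosb, an immediate early gene in none of the lists and chosen after its values were seen, was at 72.8 ± 7.49 CPM in Y libraries and 12.6 ± 3.66 CPM in Xist libraries. Stromal markers reached at most 16.0 CPM and endothelial markers at most 7.18 CPM. In sums over a library, fewer cells of a type and less RNA per cell cannot be told apart. With cells of at most 10% mitochondrial UMIs, Vegfa differed by 2.31, Thbs1 by 2.53, Gdf15 by 2.18 and Aldoa by 0.84 on the log2 scale. Without cells holding 3 or more neutrophil marker UMIs, Vegfa differed by 2.16, Thbs1 by 2.92, Gdf15 by 2.29 and Aldoa by 0.97. That rule also removed many deep cells, and in control 1 it lowered the summed UMIs from 3436577 to 1142101. With the date stamp as a further term, the values were 2.03, 2.96, 2.11 and 0.79. The part of platelets, monocytes and immediate early genes in these differences was not tested.

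Within the treated group the set and the date cannot be told apart, because CYR61 1 and 2 are both Xist libraries of the earlier date and CYR61 3 and 4 both Y libraries of the later one. Summed over the 3 secreted factors, the level was 760, 265, 134 and 626 CPM in controls 1 to 4 and 145, 116, 658 and 1048 CPM with CYR61. Summed over the transporter and the enzymes it was 1040, 723, 777 and 1034 CPM against 654, 674, 920 and 859 CPM. The secreted sum thus spanned a wider range of folds than the enzyme sum, and both sums were higher in each Y library than in each Xist library. For the enzymes this rested on Aldoa, without which the sum was 459, 412, 376 and 365 CPM in control 1, control 4, CYR61 3 and CYR61 4 and 415, 447, 333 and 352 CPM in the Xist libraries, which overlap. The mean log2 CPM of the secreted factors minus that of the transporter and the enzymes without Pgk1, 5 genes, was 1.14 to 1.93 in Y libraries and -1.01 to 0.24 in Xist libraries.

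**Figure D4:**
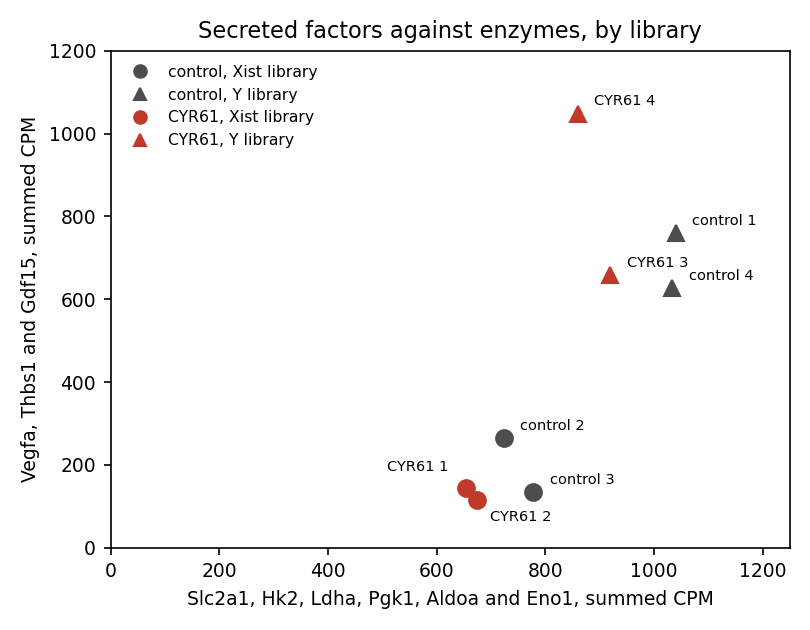
Summed CPM of Vegfa, Thbs1 and Gdf15 against summed CPM of Slc2a1, Hk2, Ldha, Pgk1, Aldoa and Eno1, 1 point per library on linear axes. The 4 Y libraries lie at 626 to 1048 CPM of secreted factors and the 4 Xist libraries at 116 to 265 CPM.

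Within a date, 8 of 10 members did not overlap between treatments at the earlier date and 4 of 10 at the later one, against 48.1% and 36.8% of all 10422 genes. Split by date, the fitted differences of the secreted factors were negative at the earlier date and positive at the later one. At the earlier date, the CYR61 minus control log2 difference was -2.62 (SE 0.60) for Vegfa, -1.40 (SE 0.55) for Thbs1 and -2.26 (SE 0.36) for Gdf15. At the later date it was 0.23 (SE 0.41), 2.18 (SE 0.71) and 0.47 (SE 0.56). The later differences of Vegfa and Gdf15 were smaller than their standard errors, and both genes overlapped between treatments there. At each date the CYR61 libraries belong to a single set and the controls to both, so treatment within a date is mixed with the set. The interaction of treatment and date was 2.84 (SE 0.78) for Vegfa, 3.58 (SE 1.09) for Thbs1 and 2.73 (SE 0.82) for Gdf15, with edgeR adjusted p of 0.404, 0.411 and 0.407. None passed, and 0 of 11665 genes were called by edgeR. DESeq2 called 44 genes, with Vegfa as the 1 member among them. An unadjusted edgeR p under 0.05 was found for 9.86% of genes and for 4 of 10 members, Vegfa, Thbs1, Gdf15 and Pgk1. The members were chosen with the same CPM known, so nothing is read from that count. For the date term itself, edgeR called 2 of 10910 genes (0.0183%) and 0 of 10 members, and DESeq2 called 0 members. At an unadjusted edgeR p under 0.05 were 2 of 10 members, Vegfa and Gdf15, and 12.3% of all genes.

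Other genes of the same pathways were taken from lists that name no member. With CYR61, none of the 68 tested genes of the 7 pathway lists was called by edgeR, 5 had an unadjusted p under 0.05, and DESeq2 called 1, Cd47. The 22 other glycolysis genes had a median log2 fold change of -0.36 with CYR61, against -0.02 over all genes, and 0 of 22 were called. Between Y and Xist libraries, 2 of these 22 rose and 2 fell, with a median of 0.22 against 0.01 over all genes. That is near the 7.23% higher and 7.51% lower over all genes, so the count does not set glycolysis genes apart. Hk3, a hexokinase of myeloid cells, rose from 183 ± 15.6 to 323 ± 45.3 CPM (0.83 on the log2 scale), and Eno2, the neuron-type enolase, from 12.4 ± 9.53 to 36.5 ± 18.1 CPM (1.50). Tpi1, triosephosphate isomerase, fell from 191 ± 42.9 to 117 ± 41.1 CPM (-0.67), and Pdk1, a kinase of pyruvate dehydrogenase, from 67.4 ± 21.9 to 38.1 ± 12.3 CPM (-0.80). Of these, Hk3 passed in all 18 alternatives, Pdk1 in 14, Eno2 in 13 and Tpi1 in 9.

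The counts for regulators and other targets of HIF stand beside the 14.7% of all genes called between the sets. Of 10 tested HIF regulators, such as the prolyl hydroxylases that mark HIF-1α for degradation, edgeR called 0 between the sets, with 3 at an unadjusted p under 0.05 and the same 3, Arnt, Egln1 and Egln2, called by DESeq2. Of 15 other HIF targets, 1 rose and 1 fell. Hilpda, a lipid droplet protein that inhibits lipolysis, rose from 9.53 ± 2.25 to 30.1 ± 23.5 CPM and passed in 12 of 17 alternatives. Plin2, a coat protein of lipid droplets, fell from 505 ± 20.2 to 297 ± 54.3 CPM and passed in 17 of 18. Among 11 tested stress genes that accompany Gdf15, 4 rose and 0 fell in the Y libraries, with a list median of 0.48 and 7.23% of all genes called higher. Cdkn1a, the p53 target that encodes the cell cycle inhibitor p21, rose from 313 ± 71.5 to 612 ± 27.7 CPM and passed in all 18 alternatives. Ddit3, which encodes CHOP of the integrated stress response, rose from 86.6 ± 7.21 to 166 ± 35.1 CPM and passed in 17. Ppp1r15a and Mdm2 passed in 10 and 8 of 18. Among receptors, Itgav, the integrin αv subunit, fell from 137 ± 14.2 to 60.6 ± 4.94 CPM and passed in all 18, whereas Cd36, a thrombospondin receptor, and Nrp2, a VEGF co-receptor, fell and passed in 11 and 10. Of the 2 tested YAP and TEAD targets, 0 were called by edgeR.

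Over the 8 libraries, the genes whose log2 CPM was most like Vegfa's, among 3781 genes with a mean of at least 50 CPM, were Rnf181 (Pearson r = 0.98), Ddx3y (0.96), Card19 (0.96), Psmb6 (0.96) and Blvrb (0.95). Ddx3y is itself a Y-linked gene, and it was at 0 to 207 CPM. Gdf15 ranked 18 with r = 0.93, Aldoa 127 with 0.83, Thbs1 542 with 0.61 and Hif1a 1524 with 0.09. For the mean of Ldha, Aldoa and Eno1 the closest were Gpcpd1 (0.94), Arih1 (0.93), Csnk1e (0.93), Ptpre (0.92) and Fn1 (0.92). Pgk1 did not pass the filter on low counts and is not in that mean. The 8 points share the split, the date and the depth of their libraries, so these values only describe the likeness.

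The spread of the members over single cells was measured within libraries. Each cell was thinned to 500 UMIs, which left 8848 cells and dropped 348 shallower ones, and the variance of UMIs over cells was divided by their mean in each library with at least 20 UMIs of the gene. That ratio is near 1 where UMIs fall on cells at random, and where they do not it can rise with the mean, so genes of unequal level are not ranked by it. It had a median of 1.48 for Thbs1 (1.14 to 1.60 over 6 libraries), 1.14 for Vegfa (1.01 to 1.20 over 4) and 1.10 for Gdf15 (1.04 to 1.40 over 6). For Aldoa it was 1.03, for Ldha 1.02, for Hif1a 0.989 and for Eno1 0.983. In CYR61 1 the ratio was 1.16 for Vegfa and 1.14 for Thbs1, and in CYR61 3 it was 1.40 for Gdf15 and 1.47 for Thbs1. At least 3 UMIs of the gene were found in 31 thinned cells for Thbs1, 16 for Aldoa, 7 for Ldha, 4 for Gdf15 and 3 for Vegfa, genes that differ in their total UMIs.

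Cells with a Thbs1 UMI held more neutrophil granule transcripts than other cells of the same library. A Thbs1 UMI was present in 597 cells, and the 7 libraries with at least 10 such cells entered a fit with the library as a block. S100a9, a subunit of the calcium-binding protein calprotectin, was at 1841 ± 1748 CPM against 615 ± 543 CPM (SD, n = 7) and rose by 1.13 on the log2 scale (SE 0.14, edgeR adjusted p = 3.01e-11), higher in 6 of 7 libraries. Its partner S100a8 rose by 1.07, Ngp, the neutrophilic granule protein, by 1.21, and Ltf, the granule protein lactoferrin, by 2.09 on the log2 scale, each in 6 of 7 libraries. Syne1, a nuclear envelope protein, rose by 1.07 and was higher in 5 of 7, and Mmp12, the macrophage elastase, fell by 0.56 in 7 of 7. S100a9 and S100a8 passed in 11 of 13 alternatives, Ngp in 11 of 12, Mmp12 in 8 of 13, Ltf in 8 of 12 and Syne1 in 6 of 12. Ltf and Syne1 were lost without control 1, control 2 or control 4, and Syne1 also with another random seed. Mmp12 was lost without control 1, control 4, CYR61 3 or CYR61 4. In all 5 genes were called higher of 3824 tested (0.131%) and 1 lower (0.0262%), 0.157% together, and 4 of the 6 tested neutrophil markers were among them. DESeq2 called 0 genes in this comparison, edgeR called 3 without control 4, and 5.2% had an unadjusted edgeR p under 0.05. Without cells holding 3 or more neutrophil marker UMIs, S100a9 stood at 0.24 and S100a8 at 0.43, and neither passed. Both genes are among those markers, so removing such cells lowers their difference by design, and nothing is read from that loss. Summed over the 10 neutrophil markers, cells with a Thbs1 UMI were higher in each library except CYR61 3, where they held 987 CPM and the other cells 3657 CPM. Median UMIs before thinning were not equal, at 2845 against 1385 in CYR61 1, for example. No member was called between these cells and the rest, with 0 of 5 tested members at an unadjusted p under 0.05 or called by DESeq2.

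**Figure D5:**
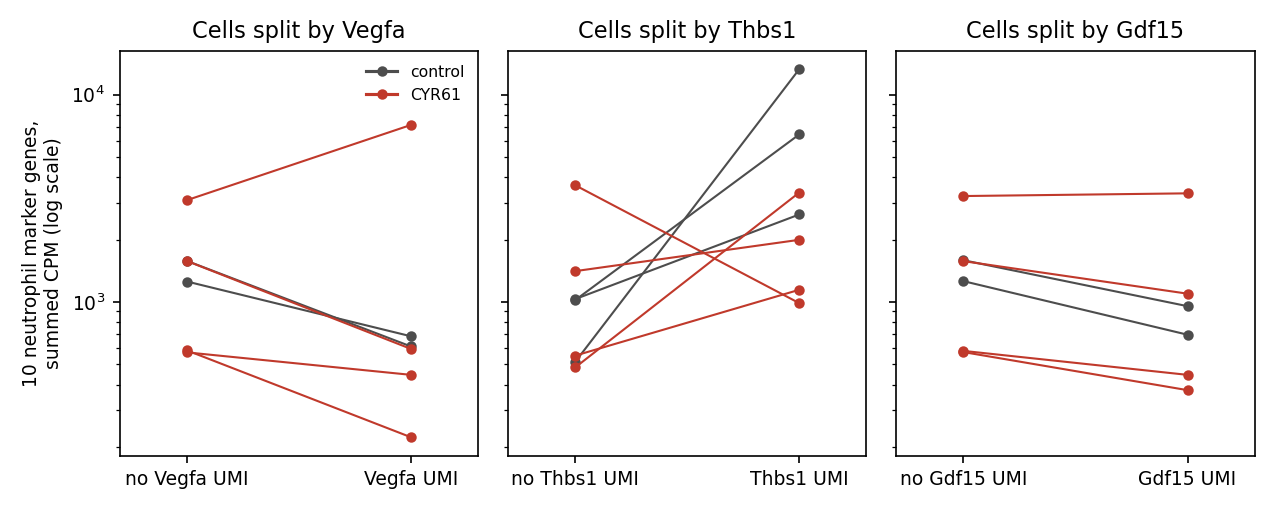
Summed CPM of 10 neutrophil markers (log axis) in cells without and with a UMI of Vegfa, Thbs1 or Gdf15, with 1 line per library and cells thinned to 500 UMIs. The sum is higher with a Thbs1 UMI in 6 of 7 libraries, and with a Vegfa or Gdf15 UMI in 1 of 6.

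Few genes were called between cells with a Vegfa or Gdf15 UMI and the rest. A Vegfa UMI was present in 243 cells, and a fit over the 6 libraries with at least 10 such cells called 4 of 3563 genes (0.112%), all lower: Fth1, the ferritin heavy chain, by 0.52, Lpl, lipoprotein lipase, by 0.64, Rn18s, a ribosomal RNA, by 0.52, and Spp1, osteopontin, by 0.70 on the log2 scale. The median over all genes in this fit was -0.23, so the values depend on the scaling. In CPM the cells with and without a Vegfa UMI held 20598 and 21720 of Fth1 and 43246 and 46162 of Rn18s, and over the alternatives Fth1 ran from -0.96 to -0.16. Lpl passed in 5 of 12 alternatives and each of the others in 3 of 12. The count was 0 with RLE factors, with DESeq2, with another random seed, and without control 4, CYR61 1 or CYR61 2. It was 19 without control 1, 1 without CYR61 3 and 2 without CYR61 4, and 7.77% of genes had an unadjusted p under 0.05. None of 6 tested members was called by edgeR or DESeq2, and 1, Aldoa, had an unadjusted p under 0.05, at a log2 fold change of -0.54. Thbs1 stood at 0.34, Ldha at -0.50 and Gdf15 at -0.12, all against that median of -0.23. A Gdf15 UMI was present in 361 cells. Over the 6 libraries that entered the fit, Top2a, the topoisomerase of dividing cells, rose by 1.35 (SE 0.32, edgeR adjusted p = 0.0287, higher in 5 of 6 libraries), and Atp6v0d2, a subunit of the vacuolar proton pump, fell by 0.46. Top2a passed in 7 of 12 alternatives. Atp6v0d2 passed in 2 of 12, with values from -0.92 to -0.08, and was lost with RLE factors, DESeq2, another seed and 1000 UMIs per cell. Those were 2 of 3239 genes (0.0617%, and 0.0309% each way), and the count was 0 without control 1, control 4 or CYR61 2, 1 without CYR61 1 and 4 without CYR61 4. None of 4 tested members was called between cells with and without a Gdf15 UMI by edgeR or DESeq2, and 0 had an unadjusted p under 0.05, against 5.53% of all genes tested.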

How the data were processed

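The labels give 4 control and 4 CYR61 libraries, each deposited as a table of whole-number UMI counts per gene and barcode. Per the submitters' processing notes the build is mm10. For the aligner, the counter and the cell calling nothing is stated in the labels. The members, the gene lists and the tests were chosen with earlier results of these data known.

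Deposited counts were summed per library over cells, as defined in the report, and divided by the total for CPM. Fits used R 4.3.3 and edgeR 4.0.16, with filterByExpr, TMM scaling, the quasi-likelihood test and a Benjamini-Hochberg adjusted p under 0.05 over all genes tested. DESeq2 1.42.0 was the other tool. Tables were made in Python 3.11.15 with pandas 2.3.3. The fits recovered large planted changes in simulated counts of independent libraries before use. Smaller changes, the Xist and Y split and shared barcodes were not simulated. All 10 members are named. From each list the genes called were eligible, up to 4 each way. From each fit of cells with a UMI up to 10 called genes each way with a mean of at least 20 CPM were named. Likeness used log2 CPM with a prior count of 2 and named 5 genes, leaving out predicted, mitochondrial and ribosomal protein genes. Cells with a UMI were compared in libraries with at least 10 such cells, after thinning with a fixed seed, and the gene that split the cells was left out. Doublets were not removed. Alternatives were other factors, no filter, all kept cells, cells whose barcode had no other listing of at least 100 UMIs in its date, each library left out, dates alone and a replicate block. The comparison of Y with Xist libraries and its alternatives were added after the data were seen. Columns that match no sample numbered 0.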

Additional observations from a re-analysis of the deposited data

Results flagged for a closer look

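For 2 members every CYR61 library lay below every control library at the earlier date and above every control library at the later date. With 2 libraries against 2, 48.1% of all genes tested did not overlap at the earlier date and 36.8% at the later one. Thbs1 had an interaction of treatment and date of 3.58 on the log2 scale, which did not pass (edgeR adjusted p = 0.411). Pgk1 had an interaction of 7.91 (edgeR adjusted p = 0.407), a value that depends on the prior count, because both later control libraries are listed at 0 for it. In the treated libraries the date and the Xist and Y split cannot be told apart.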

How the results depend on the processing

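The count of genes called for CYR61 against control was 121, and it was 183 with DESeq2, 239 with no filter, 0 with all kept cells and 236 with an Xist and Y block. Leaving out 1 library at a time gave 74 (without CYR61 4) to 127. For the date term the count was 2, with 159 by DESeq2, 304 with no filter, 4 with all kept cells and 0 to 725 with a library left out (725 without control 3, 32 without control 1, 0 without control 2 or any CYR61 library). The interaction had 0, with 44 by DESeq2, 180 with no filter and 0 to 345 with a library left out (345 without control 4). The count for Y against Xist libraries was 1608, with 2887 for all kept cells, 623 for barcodes not shared within a date, 588 with a replicate block, 874 with the date as a further term and 777 to 1689 with a library left out (861, 777 and 1035 without CYR61 1, 2 and 4). The labels do not say whether replicate numbers pair the libraries. Correlations of same-numbered libraries were -0.20, 0.32, -0.09 and 0.31. Numbers 2 and 4 join libraries of the same Xist or Y set and numbers 1 and 3 do not, so these values cannot decide on a pairing. With the replicate block CYR61 against control had 117 calls.

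Counts for cells with a Vegfa UMI were 4, then 2 at 1000 UMIs per cell, 0 with another random seed, with RLE factors and with DESeq2, 84 with no filter, 10 without cells with neutrophil UMIs and 0 to 19 with a library left out. For Thbs1 they were 6, then 11 at 1000 UMIs, 23 with no filter, 0 with DESeq2, 2 without cells with neutrophil UMIs and 3 to 7. For Gdf15 they were 2, then 4 at 1000 UMIs, 1 with another seed, 131 with no filter, 1 with DESeq2, 1 without cells with neutrophil UMIs and 0 to 4. The cause of these differences was not tested. Levels under 50 CPM rest on few UMIs in the smallest library (842528 UMIs in its cells), which limits Slc2a1, Hk2, Pgk1 and Eno1. In that library, control 3, Thbs1 and Gdf15 were also under 50 CPM, with 14 and 38 UMIs. The later-date differences and the interactions of both genes include those values.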
